A study of Mus musculus with 16 samples.

Results

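The proteasome is the barrel-shaped protease that degrades ubiquitin-tagged proteins, and the genes described here are its subunits, activators and assembly factors. They were chosen by symbol, Psma, Psmb, Psmc, Psmd, Psme, Psmf or Psmg followed by a digit, and by level, with at least 1 FPKM (fragment counts scaled to transcript length and library size) in at least 7 of 16 libraries. The pattern matched 49 of the 25791 symbols listed, and 47 passed the level filter, as 13286 symbols did in all. The 2 that did not pass are forms restricted to other tissues. Psma8, an alpha subunit of testis, lay between 0.176 and 0.888 FPKM in the 16 libraries, and Psmb11, the catalytic subunit of the thymus, between 0.0255 and 0.227 FPKM. The nearest member above the filter was Psmc3ip at 1.39 to 2.99 FPKM, which matches the symbol pattern but encodes a meiotic recombination factor and no proteasome subunit. Because levels chose the members, their presence is no result.

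The barrel, called 20S, stacks rings of alpha subunits (Psma) around rings of beta subunits (Psmb), of which Psmb5, Psmb6 and Psmb7 carry the cutting sites. The 19S cap (Psmc and Psmd) binds, unfolds and feeds substrates. Interferon induces replacement subunits, Psmb8 for Psmb5, Psmb9 for Psmb6 and Psmb10 for Psmb7, and the PA28 cap made of Psme1 and Psme2, which together form the immunoproteasome and shape the peptides shown on MHC class I. In kidney, interferon and inflammation are known to raise these replacement subunits in resident cells as well as in leukocytes. The 5 immunoproteasome genes were set against 31 constitutive subunits, 14 of the 20S barrel and 17 of the 19S cap.

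The libraries came from mice of a single genotype, eNOS-/-//db/db, which lack endothelial nitric oxide synthase and carry the db leptin receptor mutation, a model of diabetic kidney disease. The untreated group had 9 libraries. The RAAS_blocked group had 7 libraries from mice that drank lisinopril (20 mg/day), an inhibitor of angiotensin-converting enzyme, together with losartan (30 mg/day), an angiotensin receptor blocker, starting at 10 to 12 weeks of age and ending at 26 weeks. No ages are recorded here for the untreated group, so any age difference between the groups and the treatment cannot be told apart. Both groups are diabetic and lack eNOS, and no group without diabetes was analysed here. The tissue is labelled kidney, while the extraction text describes glomeruli, the filtering tufts, taken from 1 kidney per mouse with iron and a magnet. The podocyte gene Nphs1 was at 181 to 470 FPKM over the 16 libraries, whereas Podxl was listed at 0 in each. Library identifiers form an unbroken run in each group, so any effect of that order and the treatment cannot be told apart.

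Absolute depth is unknown, since the table holds no counts. RAAS_blocked replicate 4 had 16919 symbols above 0 against 17993 to 18613 in the other 15 libraries. The sum of all FPKM values was 1104590 in untreated replicate 7 and 1172070 in RAAS_blocked replicate 5. In the remaining libraries it was 408454 to 492575, and the source of this difference was not tested. RAAS_blocked replicate 6 stood apart for the immunoproteasome, and counts and estimates of named genes that turn without it are given both ways. Tubule RNA was present in every library to different extents, the mean level of 8 proximal tubule markers on the log2(FPKM + 1) scale lying between 1.37 and 5.33.

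The stretches just before the gene start of the catalytic pairs are shown because interferon-bound and stress-bound elements in such promoters are the textbook routes to immunoproteasome and constitutive subunits. They come from RefSeq (build GRCm38.p6) and hold positions -150 to -1, read 5' to 3' on the gene's strand, for Psmb8 at chr17:34198045-34198194 (+), Psmb9 at chr17:34187331-34187480 (-), Psmb5 at chr14:54617996-54618145 (-) and Psmb6 at chr11:70525207-70525356 (+). Capitals mark matches, on either strand, to GAS (TTCNNNGAA, the gamma-activated site), to an IRF element (GAAANNGAA) or to ARE (TGACNNNGC, the site of NRF1 and NRF2).
Psmb8: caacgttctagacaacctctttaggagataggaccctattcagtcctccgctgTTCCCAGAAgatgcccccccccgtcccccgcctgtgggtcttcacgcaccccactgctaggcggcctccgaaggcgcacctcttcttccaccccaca
Psmb9: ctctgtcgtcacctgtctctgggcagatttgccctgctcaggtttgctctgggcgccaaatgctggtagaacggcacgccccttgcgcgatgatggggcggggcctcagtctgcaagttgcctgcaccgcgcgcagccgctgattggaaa
Psmb5: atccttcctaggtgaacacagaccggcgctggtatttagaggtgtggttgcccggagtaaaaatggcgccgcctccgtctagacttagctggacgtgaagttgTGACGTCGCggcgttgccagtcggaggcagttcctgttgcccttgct
Psmb6: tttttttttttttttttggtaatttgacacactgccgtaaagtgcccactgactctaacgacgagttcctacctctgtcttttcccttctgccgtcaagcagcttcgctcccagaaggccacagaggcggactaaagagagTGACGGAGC

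Psmb8 held the GAS match TTCCCAGAA from position -97, Psmb5 the ARE match TGACGTCGC from -47 and Psmb6 the ARE match TGACGGAGC from -9. No match to the 3 motifs lay in the printed stretch of Psmb9, which says only that these letters are not in it. Windows of 300 bases, from 250 before to 50 after the start, were found for 40 of the 47 members. Of 5 immunoproteasome genes 1 had a GAS match (Psmb8), 1 an IRF match (Psme1) and 0 an ARE match. Of 25 constitutive subunits with a window, 1 had a GAS, 4 an IRF and 4 an ARE match (Psmb5, Psmb6, Psmc6 and Psmd12). Of all 27025 genes with a window, 9.55% had a GAS, 9.76% an IRF and 14% an ARE match in at least 1 window; by window (32851) the shares were 8.3%, 8.56% and 12.4%. CCAAT, a general promoter element, was found for 1 of 5 immunoproteasome and 10 of 25 constitutive genes, against 41.1% of all genes with a window. A match is a description of letters and not a measured site, and the build the authors aligned to is not given in the sources used here.

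The first comparison asked whether the blockade was accompanied by other levels of proteasome genes. None of the 47 members passed limma's test at an adjusted p of 0.05, against 2 of all 13286 tested genes (0.0151%). At an unadjusted p of 0.05, 1 of 47 was called, Psmd9, against 814 of all genes (6.13%). The ranges of the groups overlapped for all 47 members, and failed to overlap for 8 of all tested genes (0.0602%). Estimates were above 0 for 23 members and below 0 for 24, with a median log2 difference (RAAS_blocked minus untreated) of -0.01, where all tested genes had -0.02. With RAAS_blocked replicate 6 left out, 13 were above 0 and 34 below, with a median of -0.06. In bulk tissue, fewer cells of a type and less RNA per cell cannot be told apart.

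Psmb8, the replacement for the chymotrypsin-like subunit Psmb5, had a lowest, median and highest level of 25.8, 31.2 and 100.1 FPKM in the 9 untreated libraries and of 16.4, 33.3 and 379.0 FPKM in the 7 RAAS_blocked libraries. The groups overlapped, with similar medians, and both the lowest and the highest library were RAAS_blocked. High libraries were untreated replicates 1, 3 and 7 at 77.7, 100.1 and 72.1 FPKM and RAAS_blocked replicates 0, 3 and 6 at 71.8, 59.2 and 379.0 FPKM. The means were 47.4 ± 28.0 (SD, n = 9) and 86.7 ± 131 FPKM (SD, n = 7), and the log2 difference was 0.18 ± 0.53 (SE; limma adjusted p = 0.969) with a 95% interval of -0.95 to 1.31.

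Psmb9, which takes the place of Psmb6, ran from 25.2 through a median of 32.8 to 120.6 FPKM in untreated and from 16.6 through 32.2 to 424.2 FPKM in RAAS_blocked libraries. The same 6 libraries were the highest, untreated replicate 1 at 120.6 FPKM leading its group. Its log2 difference was 0.06 ± 0.59 (SE; limma adjusted p = 0.991), with an interval of -1.19 to 1.30. Psmb10, the replacement for the trypsin-like subunit Psmb7, ran from 33.4 through 44.0 to 72.1 FPKM untreated and from 32.7 through 38.4 to 278.1 FPKM RAAS_blocked. Apart from RAAS_blocked replicate 6, its libraries spanned a narrower range than those of Psmb8 and Psmb9. Its log2 difference was 0.18 ± 0.37 (SE; limma adjusted p = 0.955).

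The PA28 subunits were more abundant and varied less. Psme1 lay at 96.0, 110 and 173 FPKM (lowest, median, highest) in untreated and at 82.2, 104 and 372 FPKM in RAAS_blocked libraries. Psme2, its partner in the ring, lay at 80.1, 84.1 and 151 FPKM in untreated and at 69.9, 93.2 and 397 FPKM in RAAS_blocked libraries. Without RAAS_blocked replicate 6 the highest RAAS_blocked values were 143 FPKM for Psme1 and 119 FPKM for Psme2, inside the untreated ranges. The log2 differences were 0.12 ± 0.25 for Psme1 and 0.27 ± 0.28 for Psme2 (SE; limma adjusted p = 0.956 and 0.927). The ratio of Psme1 to Psme2 was 1.08 to 1.41 in 15 libraries and 0.935 in RAAS_blocked replicate 6, where alone Psme2 exceeded Psme1.

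**Figure D1:**
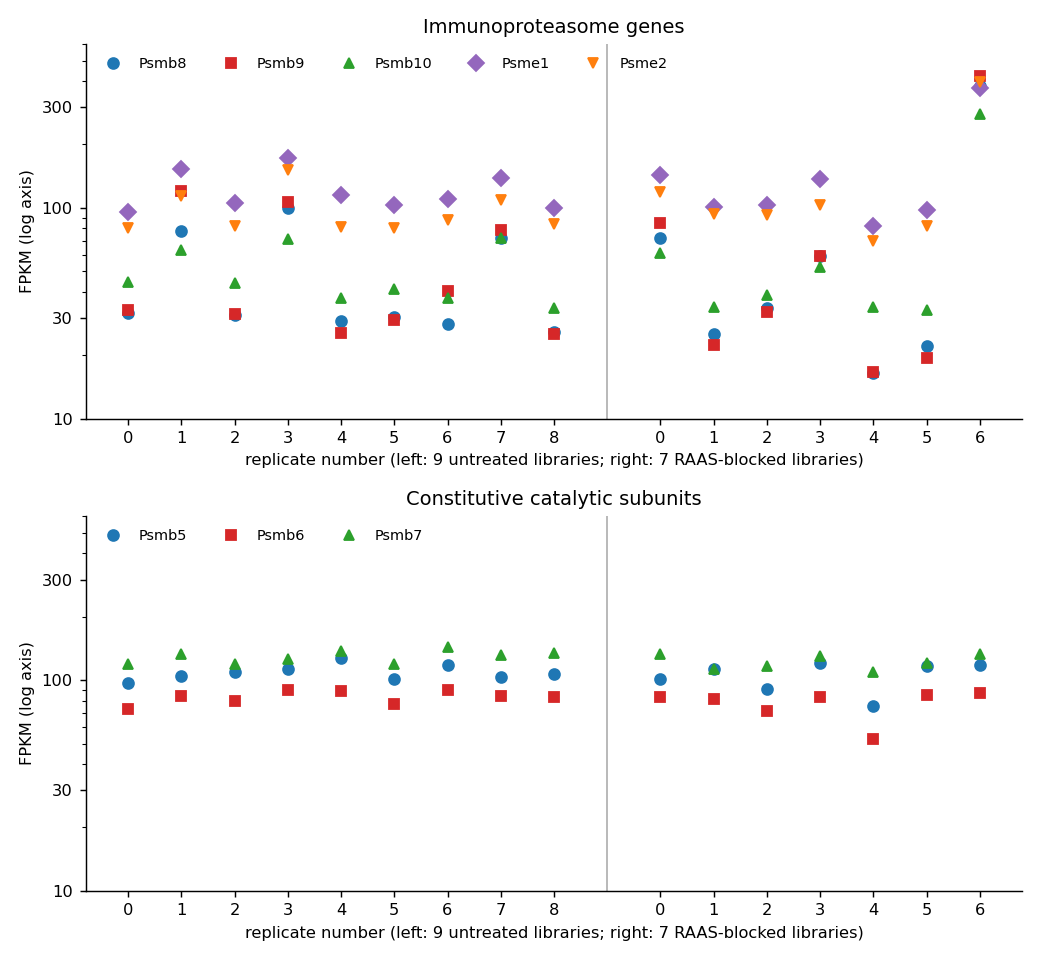
FPKM of the 5 immunoproteasome genes (upper panel) and of the 3 constitutive catalytic subunits (lower panel) on a log axis, with 1 point per gene and library. Untreated replicates 1, 3 and 7 and RAAS_blocked replicates 0 and 3 sit above their neighbours in the upper panel and RAAS_blocked replicate 6 above all, at 278.1 FPKM or more, while the lower panel stays between 52.8 and 144 FPKM.

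All 5 immunoproteasome estimates were above 0, with a median of 0.18, but the sign of the median rested on a single library. The count above 0 was 3 of 5 with array weights or with the leukocyte level as a covariate. It was 4 of 5 in several fits without a library other than RAAS_blocked replicate 6. Without RAAS_blocked replicate 6, 0 of 5 were above 0 and the median was -0.21, the values being -0.32 ± 0.38 for Psmb8, -0.47 ± 0.44 for Psmb9, -0.21 ± 0.20 for Psmb10, -0.13 ± 0.15 for Psme1 and -0.03 ± 0.15 for Psme2 (SE; none passed limma's test). Without RAAS_blocked replicates 4 and 6 the median was -0.12. Constitutive subunits had a median of -0.02 with all libraries and -0.06 without RAAS_blocked replicate 6. No direction for the immunoproteasome is therefore given.

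The mean level of the 5 genes per library, as log2(FPKM + 1), left its widest gaps between 5.75 and 6.28 and between 6.85 and 8.52. Below the first gap lay 10 libraries, 6 untreated and 4 RAAS_blocked. Between the gaps lay 5, namely untreated replicates 1, 3 and 7 and RAAS_blocked replicates 0 and 3, and above the second lay RAAS_blocked replicate 6 alone. High and low libraries thus occurred in both groups. These ranges describe the data and were not compared as groups.

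Levels in FPKM are per transcript length, so the replacement and the constitutive subunit can be set side by side. The ratio of Psmb8 to Psmb5 was 0.188 to 0.891 in 15 libraries and 3.22 in RAAS_blocked replicate 6. For Psmb9 over Psmb6 it was 0.228 to 1.43 and then 4.87, and for Psmb10 over Psmb7 0.249 to 0.563 and then 2.09. Transcripts of the replacement subunit were thus fewer than those of the constitutive one in every library but RAAS_blocked replicate 6 for the Psmb8 and Psmb10 pairs. For the Psmb9 pair they were more also in untreated replicates 1 and 3 (1.43 and 1.19) and, barely, in RAAS_blocked replicate 0 (1.01). As a share of both transcripts, Psmb8 made up a median of 23.1% in untreated libraries (range 18.7% to 47.1%) and 27.0% in RAAS_blocked libraries (15.8% to 76.3%). The log2 ratios differed between the groups by 0.24, 0.16 and 0.26 for the 3 pairs in that order, with overlapping ranges. Leaving out RAAS_blocked replicate 6 turned these differences to -0.23, -0.34 and -0.11, again with overlapping ranges.

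**Figure D2:**
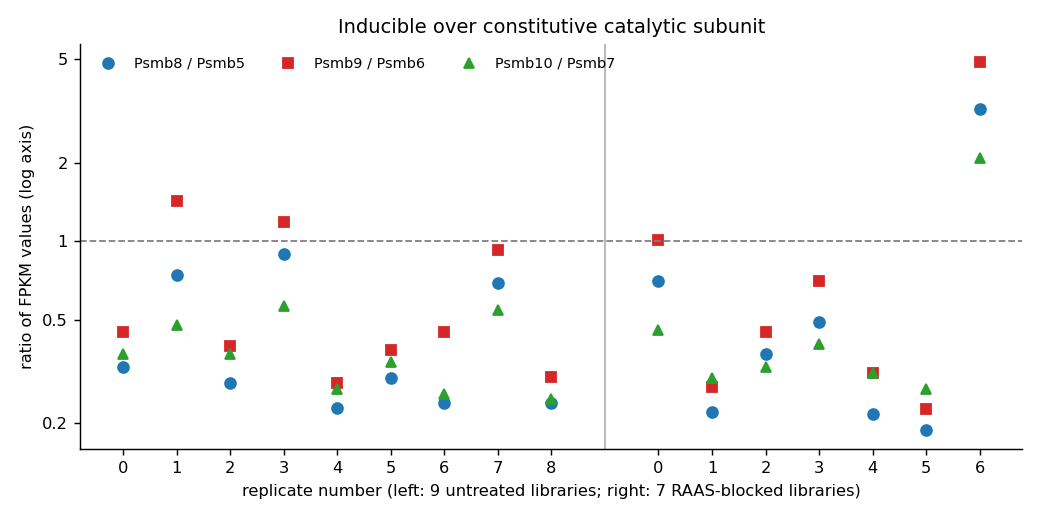
Ratio of the FPKM of each inducible catalytic subunit to the constitutive subunit it replaces, on a log axis, with 1 point per pair and library and a dashed line at equal levels. RAAS_blocked replicate 6 lies at 2.09 to 4.87 and the other 15 libraries at 0.188 to 1.43.

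The constitutive catalytic subunits were level across libraries. Psmb5 had a lowest, median and highest level of 96.5, 107 and 127 FPKM untreated and 75.3, 113 and 121 FPKM RAAS_blocked. Psmb6 lay at 73.3, 84.4 and 89.8 FPKM untreated and 52.8, 83.4 and 87.2 FPKM RAAS_blocked. Psmb7 lay at 119, 132 and 144 FPKM untreated and 109, 120 and 133 FPKM RAAS_blocked. For each of them RAAS_blocked replicate 4 was the lowest of the 16 libraries, and the groups overlapped. Their log2 differences were -0.06 ± 0.10, -0.11 ± 0.09 and -0.08 ± 0.06 (SE; limma adjusted p = 0.942, 0.903 and 0.900), and the interval for Psmb5, -0.27 to 0.14, was a fraction of the width of that for Psmb8.

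Of the structural beta subunits, Psmb4 was the most abundant constitutive subunit of all, at 118 to 198 FPKM, and Psmb2 the lowest of its role at 67.7 to 105 FPKM. Psmb3 had 129, 147 and 155 FPKM (lowest, median, highest) in untreated and 111, 137 and 156 FPKM in RAAS_blocked libraries. It had the second lowest p of the members (limma p 0.0771), with means of 146 ± 8.86 (SD, n = 9) and 133 ± 14.8 FPKM (SD, n = 7) and a log2 difference of -0.13 ± 0.07 (SE; limma adjusted p = 0.830). Without RAAS_blocked replicate 6 its unadjusted limma p was 0.0215 (adjusted p = 0.693). For Psmb4 the log2 difference was -0.09 ± 0.09. All 7 constitutive beta subunits had estimates below 0, from -0.13 to -0.01, and 0 of them passed.

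The alpha ring, whose subunits gate the barrel, had 4 estimates above 0 and 3 below, and 1 above 0 without RAAS_blocked replicate 6. Psma7 was its most abundant subunit at 119 to 215 FPKM and Psma5 its least at 45.4 to 89.5 FPKM. Psma3 had 71.3, 78.6 and 87.1 FPKM (lowest, median, highest) in untreated and 72.0, 82.1 and 120.8 FPKM in RAAS_blocked libraries, overlapping groups with RAAS_blocked replicate 6 at the top. Its log2 difference was 0.14 ± 0.09 (SE; limma adjusted p = 0.865) and 0.06 ± 0.06 without that library. Psma5 had 0.11 ± 0.12, and 0.00 ± 0.09 without it.

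The 6 ATPases of the 19S base, which unfold substrates, were split with 3 estimates above 0 and 3 below, and 1 was above 0 without RAAS_blocked replicate 6. Psmc1 was the most abundant at 85.4 to 106 FPKM, with 98.4 ± 6.52 (SD, n = 9) untreated, 91.9 ± 5.81 FPKM (SD, n = 7) RAAS_blocked and a log2 difference of -0.10 ± 0.06 (SE; limma adjusted p = 0.854). Psmc3 had -0.06 ± 0.06. Psmc6, the least abundant, lay at 39.1 to 46.9 FPKM untreated and 41.0 to 56.9 FPKM RAAS_blocked, the top value being RAAS_blocked replicate 4, and its log2 difference was 0.05 ± 0.07. Among the other base subunits, the scaffold Psmd2 lay at 62.6 to 77.0 FPKM, the ubiquitin receptor Psmd4 at 55.3 to 75.6 FPKM and the scaffold Psmd1 at 45.2 to 54.0 FPKM. Their log2 differences were -0.05 ± 0.05, -0.09 ± 0.06 and 0.03 ± 0.05, and none passed.

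The 19S lid, which removes ubiquitin before degradation, had 5 estimates above 0 and 3 below (4 and 4 without RAAS_blocked replicate 6). Psmd8 was its most abundant subunit at 77.6 to 102 FPKM. Psmd14, the deubiquitinating enzyme of the lid, was its least abundant at 30.9 to 38.3 FPKM untreated and 31.2 to 40.0 FPKM RAAS_blocked, with a log2 difference of 0.07 ± 0.07 (SE; limma adjusted p = 0.925). Psmd3 lay at 61.2 to 80.7 FPKM untreated and 48.3 to 73.4 FPKM RAAS_blocked and had -0.13 ± 0.09 (adjusted p = 0.882).

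Psmd9, a chaperone that helps assemble the ATPase ring, was the member with the lowest p. It had 10.3, 11.7 and 12.7 FPKM (lowest, median, highest) in untreated and 9.43, 10.6 and 10.8 FPKM in RAAS_blocked libraries. Most RAAS_blocked libraries lay in the lower part of the untreated range, and the groups overlapped. The means were 11.7 ± 0.976 (SD, n = 9) and 10.5 ± 0.482 FPKM (SD, n = 7), the log2 difference -0.15 ± 0.06 (SE) and the limma p 0.0199, with an adjusted p of 0.745. Without RAAS_blocked replicate 2, its lowest library, the unadjusted limma p was 0.0511. The other chaperones of the cap, Psmd5 at 19.4 to 24.4 FPKM and Psmd10 at 17.9 to 22.9 FPKM, had log2 differences of -0.01 ± 0.05 (0.01 ± 0.05 without RAAS_blocked replicate 6) and 0.03 ± 0.05.

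The chaperones of the barrel, Psmg1 to Psmg4, help to build the alpha ring. Psmg4, the most abundant, ran from 17.6 to 29.0 FPKM untreated and from 10.7 to 49.1 FPKM RAAS_blocked, with RAAS_blocked replicate 4 lowest and RAAS_blocked replicate 6 highest. Psmg3, with the lowest mean of the 4, had 13.5 ± 1.93 (SD, n = 9) untreated, 12.2 ± 3.04 FPKM (SD, n = 7) RAAS_blocked and a log2 difference of -0.16 ± 0.14 (SE; limma adjusted p = 0.914). Psmg1 had 0.06 ± 0.09. Pomp, the maturation factor of the barrel that falls outside the symbol pattern, had 124 to 171 FPKM untreated and 106 to 237 FPKM RAAS_blocked and a log2 difference of -0.03 ± 0.14 (-0.17 ± 0.09 without RAAS_blocked replicate 6).

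The activators not induced by interferon, Psme3 and Psme4, were at low and even levels. Psme3, the nuclear PA28 gamma, lay at 31.1 to 40.2 FPKM in the 16 libraries, and Psme4, which encodes PA200, at 14.5 to 19.5 FPKM. Psmf1, the regulator PI31, lay at 10.4 to 14.2 FPKM in 15 libraries and at 16.1 FPKM in RAAS_blocked replicate 6. Their log2 differences were 0.03 ± 0.06, -0.08 ± 0.06 and -0.04 ± 0.08 (SE; limma adjusted p = 0.958, 0.899 and 0.955). Psmc3ip had 0.05 ± 0.11.

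**Figure D3:**
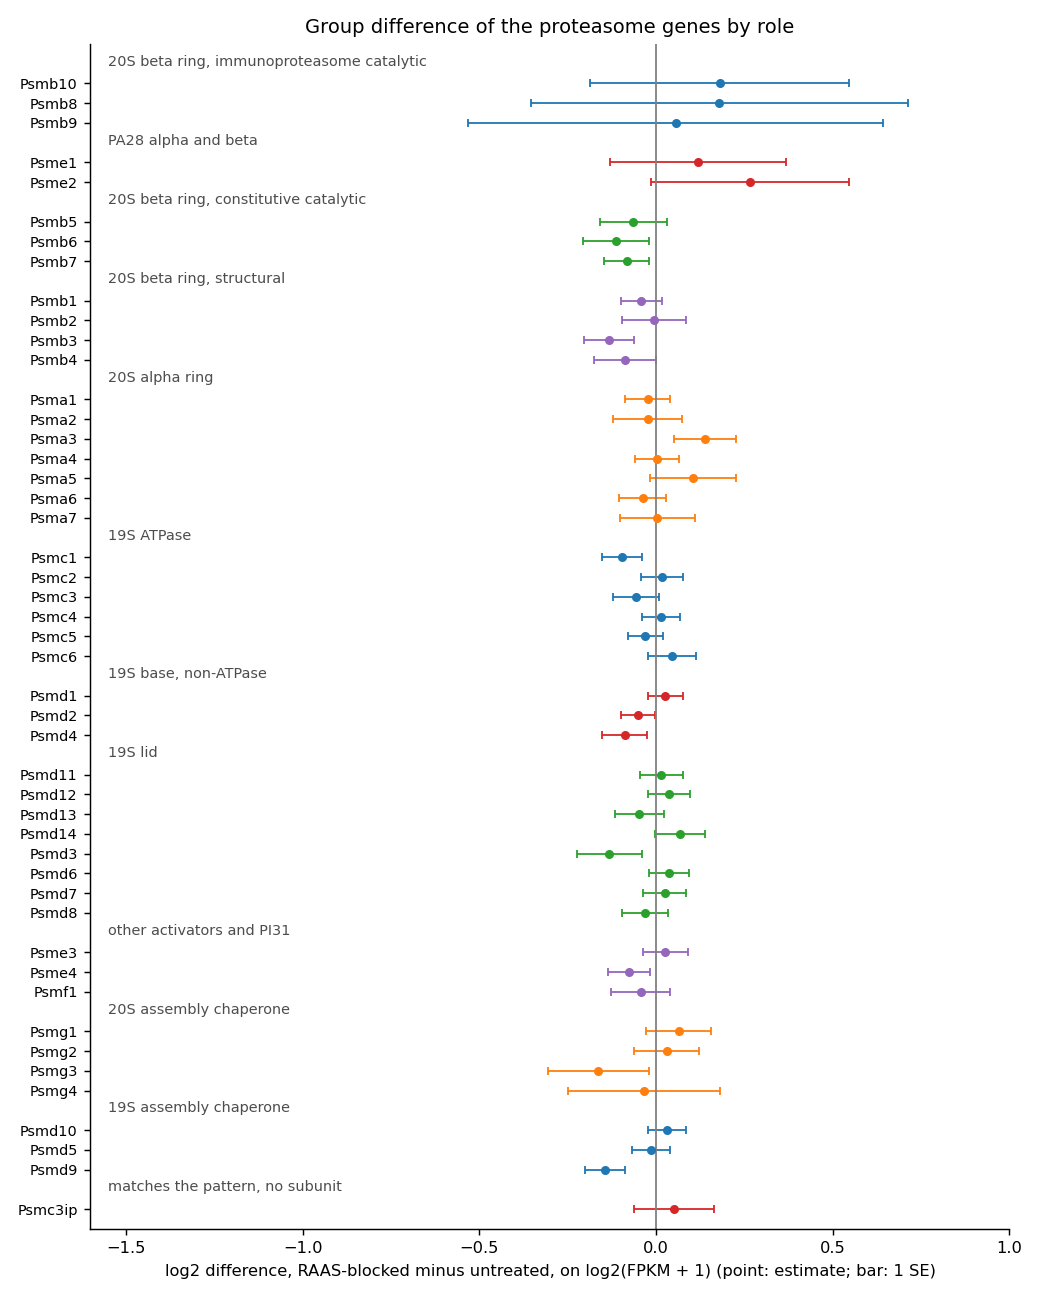
Log2 difference of each of the 47 members, RAAS_blocked minus untreated, on log2(FPKM + 1), grouped by role, with the estimate as a point and 1 SE as a bar. The 5 immunoproteasome genes have the widest bars, 0.25 to 0.59, and Psmd9 at -0.15 ± 0.06 is the only member with an unadjusted p under 0.05.

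Members differed more in spread than in group difference. After group means were removed, the residual SD of log2(FPKM + 1) was 0.07 to 0.25 for the 31 constitutive subunits (median 0.11), and 30 of them lay below the median of all tested genes, 0.23. The 5 immunoproteasome genes had 0.52 to 1.25 (median 0.78), and 0 of 5 lay below it. Psmd2 (0.07) had a larger SD than only 0.444% of tested genes, and Psmb9 (1.25) than 98.7%. Without RAAS_blocked replicate 6 the 5 genes still lay above the median of all tested genes (0.22), Psmb9 at 0.90, Psmb8 at 0.77, Psmb10 at 0.40 and Psme1 and Psme2 at 0.30 each. The constitutive subunits are abundant and the genes were not matched for level, so these shares are descriptions.

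**Figure D4:**
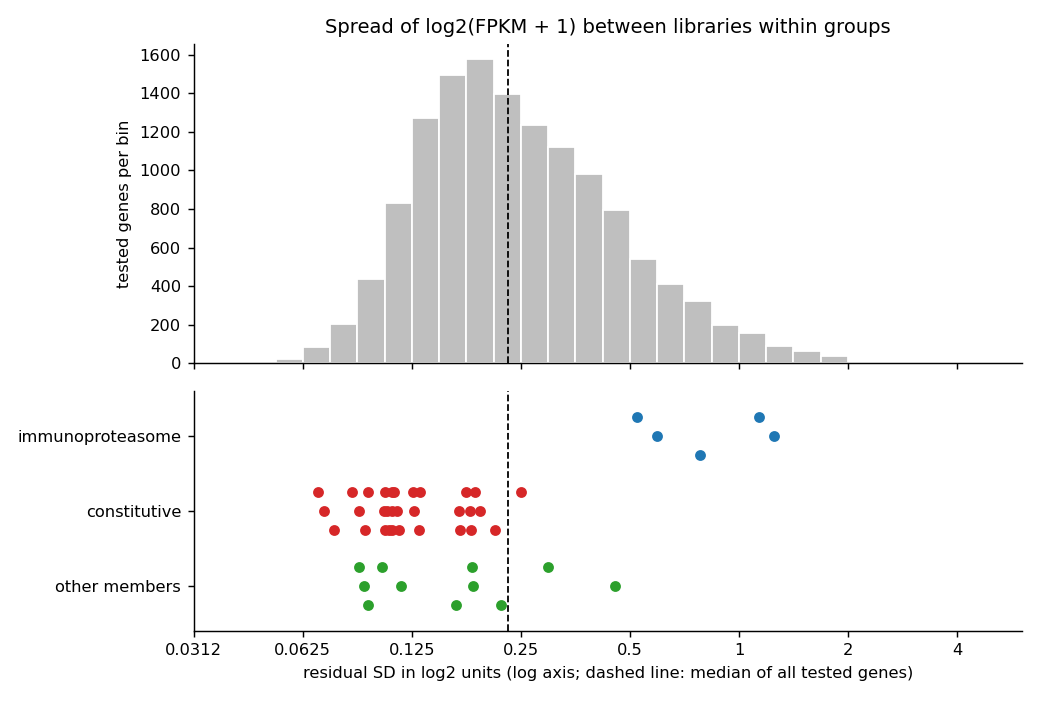
Histogram of the residual SD of log2(FPKM + 1) over all 13286 tested genes (upper panel, log axis) and the same value for each member by class (lower panel). The immunoproteasome genes lie at 0.52 to 1.25, right of the dashed median of 0.23, and 30 of 31 constitutive subunits left of it.

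The immunoproteasome genes moved together from library to library. Over the 16 libraries, with group means removed, Pearson's r between pairs of the 5 genes had a median of 0.97 (0.94 to 0.99), and 0.94 without RAAS_blocked replicate 6. Within the 10 low libraries the median was 0.62, with a range of 0.00 to 0.78. Those 10 were picked by the mean level of the same 5 genes, and the narrower range can lower r by itself. The same limit holds for every r with the immunoproteasome given for these 10 libraries. Pairs of constitutive subunits had medians of 0.53, 0.50 and 0.37 over the same 3 sets of libraries. Pairs of an immunoproteasome and a constitutive gene had 0.56, 0.43 and -0.08. The genes of a library share its normalization, and these values are a description with no test.

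RAAS_blocked replicate 6 was also at the top for many constitutive barrel subunits, at far smaller excess. It was the highest library for 10 of 14 constitutive 20S subunits (71.4%) and 4 of 17 19S subunits (23.5%), against 12.6% of all tested genes. As a ratio to the next library, the largest excesses among constitutive subunits were those of Psma5 at 89.5 against 65.5 FPKM, Psma7 at 215 against 159 FPKM and Psma3 at 120.8 against 92.3 FPKM. Over the median of the other libraries its log2 excess had a median of 2.73 for the immunoproteasome genes, 0.19 for the 20S and 0.09 for the 19S subunits. RAAS_blocked replicate 4 was the lowest library for 21 of 47 members (44.7%) and 20.6% of all tested genes. Its low number of detected symbols moves with this, and the part of that in the low values was not tested.

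The pathway around the proteasome gave no gene past limma's threshold in either direction, and 0 genes of its lists had an unadjusted p under 0.05. In the fit without RAAS_blocked replicate 6, the unadjusted limma p of 1 gene, Ubb, was under 0.05, against 926 of all 13286 genes. Of 11 tested partners of the proteasome 7 estimates were above 0, led by the deubiquitinating enzyme Usp14 with 13.6 ± 1.20 (SD, n = 9) untreated and 15.7 ± 2.89 FPKM (SD, n = 7) RAAS_blocked and by the small lid subunit Shfm1, at log2 differences of 0.17 ± 0.09 and 0.13 ± 0.07. Of 13 genes of ubiquitin and its delivery 4 were above 0, and 2 without RAAS_blocked replicate 6. The ubiquitin gene Ubb had the lowest p of these, with 593 ± 48.6 (SD, n = 9) untreated and 512 ± 127 FPKM (SD, n = 7) RAAS_blocked. Its log2 difference was -0.25 ± 0.12 (SE, limma adjusted p = 0.817). The shuttle factor Ubqln4 had 0.13 ± 0.10. Of 7 genes that control proteasome genes 5 were above 0, and 6 without RAAS_blocked replicate 6. Nfe2l1, which encodes NRF1, the factor that restores proteasome levels, had 180 to 237 FPKM untreated and 158 to 242 FPKM RAAS_blocked and a log2 difference of -0.11 ± 0.09. Ngly1, the enzyme that processes NRF1, had 0.10 ± 0.06 and the stress factor Nfe2l2 0.14 ± 0.09.

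Of 13 MHC class I processing genes 10 estimates were above 0 (median 0.08), and of 20 tested interferon genes 19 were (median 0.38), with 0 passed in each list. These counts without RAAS_blocked replicate 6 were 2 of 13 (median -0.18) and 12 of 20 (median 0.01), again with 0 passed. Tap1, a subunit of the peptide transporter, had 7.50 to 77.1 FPKM in 15 libraries and 309 FPKM in RAAS_blocked replicate 6. The interferon factor Irf1 had at most 75.5 FPKM in 15 libraries and 605 FPKM in that library. B2m, the light chain of MHC class I, had 832 to 3282 FPKM in 15 libraries and 3672 FPKM there, and H2-K1, a heavy chain with near-identical relatives whose reads the counting could split, had 427 FPKM there but 435 FPKM in untreated replicate 3. Log2 differences were 0.25 ± 0.67 for Tap1, 0.47 ± 0.51 for Irf1, 0.13 ± 0.37 for B2m and -0.08 ± 0.40 for H2-K1. With that library left out they were -0.36 ± 0.48, -0.09 ± 0.25, -0.06 ± 0.36 and -0.27 ± 0.39 in the same order. By lowest p the lists were led by the chaperone Calr (0.11 ± 0.10), the peptide editor Tapbpl (0.30 ± 0.36, and -0.10 ± 0.18 without RAAS_blocked replicate 6), the kinase Jak1 (0.13 ± 0.09) and the chemokine Cxcl10 (1.12 ± 0.87, and 0.26 ± 0.55 without it), the last at 986 FPKM in RAAS_blocked replicate 6 and at most 93.7 FPKM elsewhere.

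Beyond the members, 10683 genes of at least 2 FPKM on average were ranked by Pearson's r to the mean of the 5 immunoproteasome genes. The 16 libraries were used with group means removed, and predicted, unnamed and small RNA symbols were left out of the ranking. The 8 nearest were Ifi47, Tap2, Nlrc5, Gbp4, Isg15, Zbp1, Rnf19b and Bst2, at r from 0.97 to 0.99. Without RAAS_blocked replicate 6 their r was 0.93 to 0.99, and within the 10 low libraries it was 0.53 (Isg15) to 0.92 (Zbp1). Ifi47 and Gbp4 are interferon-induced GTPases and Nlrc5 is the transactivator of MHC class I genes. The level of Nlrc5 itself was 1.13 to 9.85 FPKM in 15 libraries and 41.5 FPKM in RAAS_blocked replicate 6. Nearest to the mean of the constitutive subunits were Arf1 (r = 0.93), Cct2, Akr1b3, Eif2b2, Rnh1, Chmp4b, Tmem11 and Eif5a (0.89), among them a chaperonin subunit (Cct2) and translation factors (Eif2b2 and Eif5a).

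Beside these levels stand the marker lists of cells the glomeruli could hold. All 8 leukocyte markers had estimates above 0 (median 0.44), none past the test, and their mean level on the log2(FPKM + 1) scale was 3.64 to 7.05 untreated and 4.20 to 6.51 RAAS_blocked. Untreated replicate 3 had the highest leukocyte level (7.05) and the highest immunoproteasome level of its group. Untreated replicate 1, the next in its group for the immunoproteasome, had the lowest leukocyte level of all 16 libraries (3.64), and RAAS_blocked replicate 6 had 5.59, below 3 other RAAS_blocked libraries. The immunoproteasome level had r = 0.46 and Spearman's rho = 0.47 with the leukocyte level over the 16 libraries, 0.64 without RAAS_blocked replicate 6, 0.50 without the 2 libraries farthest from the median immunoproteasome level (RAAS_blocked replicate 6 and untreated replicate 3), and 0.63 within the 10 low libraries. With the macrophage and dendritic cell markers r was 0.38, then 0.64, 0.48 and 0.71, and rho was 0.47. With the MHC class I list it had r = 0.98 and rho = 0.94, then 0.97, 0.97 and 0.67, and with the interferon list r = 0.98 and rho = 0.95, then 0.95, 0.94 and 0.48. No p is given for these, since the members were chosen with results known.

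With the leukocyte level as a covariate the median immunoproteasome estimate was 0.02. The 10 macrophage and dendritic cell markers, led by Itgam (0.60 ± 0.41) and Emr1 (0.50 ± 0.51), had mean levels of 3.41 to 7.30 untreated and 3.50 to 6.03 RAAS_blocked. On the log2 scale all 10 estimates were above 0 with 0 passed. Mean FPKM was lower in RAAS_blocked than in untreated libraries for Cd68, Csf1r, C1qa, C1qb, C1qc and Cd74. It was higher for Itgam, Emr1, Itgax and H2-Aa. The T cell markers Cd3e and Cd3g reached at most 0.803 and 1.68 FPKM, none of the 8 T and NK markers passed the level filter, and of 4 B cell markers only Cd79b did. In RAAS_blocked replicate 6 the proximal tubule level (1.37) and the endothelial level (7.17) were the lowest of the 16 and the podocyte level (8.59) was second to untreated replicate 6 (8.72). The part of these differences in cell content in the immunoproteasome levels was otherwise not tested.

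All 7 endothelial estimates were below 0, led by Kdr (-0.45 ± 0.21, limma adjusted p = 0.810) and Emcn (-0.35 ± 0.17). All 7 of mesangium and smooth muscle were above 0, led by Rgs5 (0.48 ± 0.16) and Acta2 (0.69 ± 0.28). In these lists 0 genes passed, and 1 and 2 had an unadjusted limma p under 0.05, against 814 of all 13286 genes. Without RAAS_blocked replicate 6 these counts were 0 and 2, against 926, and Kdr had -0.33 ± 0.20. The 6 tested podocyte genes were all below 0, among them Wt1 (-0.27 ± 0.26). Of the 8 proximal tubule estimates 1 was above 0, and 6 were without RAAS_blocked replicate 6. Tubule markers were led by Cubn (-0.26 ± 0.35) and Aqp1 (-0.10 ± 0.26) of the proximal and Umod (-0.72 ± 0.44) and Slc12a3 (-0.41 ± 0.49) of the distal list. Leukocyte markers were led by Cd53 (0.47 ± 0.33) and Fcer1g (0.55 ± 0.52), and Cd79b had 0.12 ± 0.31.

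**Figure D5:**
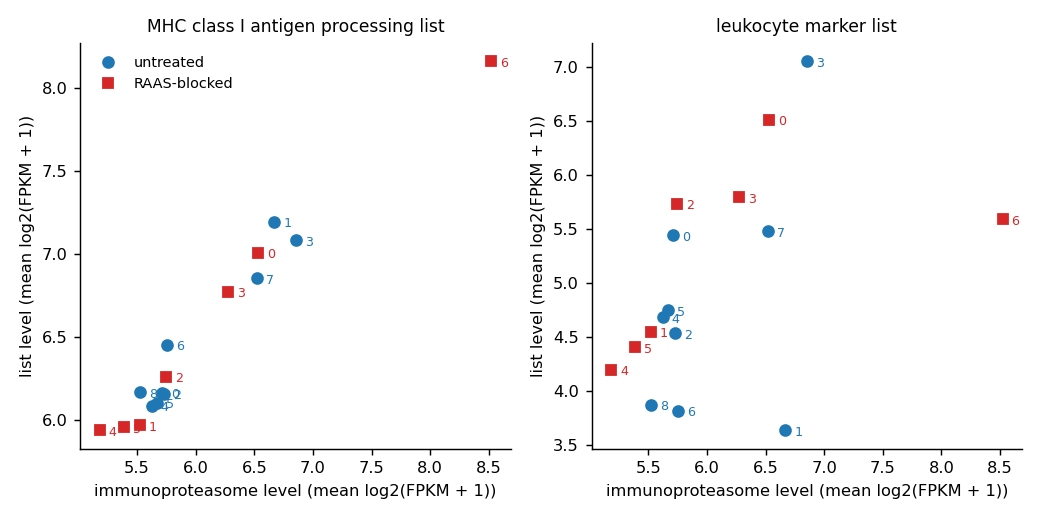
Mean log2(FPKM + 1) of the 5 immunoproteasome genes (x axis) against that of the MHC class I processing list (left) and of the leukocyte markers (right), with 1 labelled point per library. The left panel rises along a line to RAAS_blocked replicate 6 at 8.52, while on the right untreated replicate 1 combines an immunoproteasome level of 6.67 with the lowest leukocyte level, 3.64.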

How the data were processed

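RNA of isolated glomeruli was sequenced from 16 libraries with a poly(A) mRNA kit, per the labels' protocols. The authors deposited 1 table of FPKM values. Tools named in the submitters' processing notes, without a stated role, are Cuffdiff 2.2.1, Cufflinks, TopHat2 2.0.8, CASAVA 1.8.2 and FastQC. The build, annotation and strand setting are not given in the sources used, so reads of overlapping, antisense or near-identical genes cannot be told apart. FPKM values keep no counts, so depth is unknown and no count test was run.

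Genes reaching 1 FPKM in 7 or more libraries entered limma 3.58.1 (R 4.3.3) as log2(FPKM + 1) values (group as the only term, mean trend, robust settings, two-sided), after a check on simulated data, with Benjamini-Hochberg adjustment over all 13286 genes. Fold changes on this scale understate those of low genes. Each library was taken as a separate mouse, which the labels do not state sample by sample, so p-values measure the spread between libraries. The members and gene lists were chosen with earlier results of these data known. Named were the 5 immunoproteasome genes, the 3 catalytic subunits they replace, the other activators and the regulator PI31. Also named were the 2 lowest-p members and the most and least abundant member of each other role. Members with an unadjusted p under 0.05, the 2 lowest-p genes of each list, the 8 nearest genes and some fixed regulators completed the rule. Nphs1, Podxl, Cd3e, Cd3g, Cd4, Gzma, Nkg7 and the further macrophage and dendritic cell markers, outside this rule, were named after their values were seen. A few genes that the rule names are not reported here. Alternatives covered pseudocount, filter, scaling, weights, variance model, block, covariates, a rank test and each library left out.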

Additional observations from a re-analysis of the deposited data

Results flagged for a closer look

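In 100 tests of a group's highest or lowest library, 13 stood farther from their neighbours than Dixon's 95% limit. The tests share libraries and use genes that vary together, so this count cannot be set against chance. RAAS_blocked replicate 6 was the highest of its group by this measure for Psmb8 (379.0 FPKM), Psmb9 (424.2), Psmb10 (278.1), Psme1 (371.7) and Psme2 (397.4). The same held there for the barrel subunits Psma3 (120.8 FPKM), Psma5 (89.5) and Psma7 (215.4), for the regulator Psmf1 (16.1 FPKM) and for the log2 ratio of Psmb10 to Psmb7 (1.06). In the untreated group, Psme2 stood apart in replicate 3 at 151.4 FPKM. RAAS_blocked replicate 4 was the highest of its group for Psmc6 at 56.9 FPKM, and RAAS_blocked replicate 2 the lowest for Psmd9 at 9.43 FPKM.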

How the results depend on the processing

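No proteasome gene passed the threshold under any alternative run, including the exact Wilcoxon rank test (1 member at an unadjusted p under 0.05) and each library left out. The immunoproteasome median log2 difference was 0.02 to 0.20 under alternatives that kept all libraries, and -0.21 to 0.30 with 1 library left out, negative only without RAAS_blocked replicate 6. The constitutive median was -0.05 to 0.01 and -0.06 to 0.01. Counts of estimates above or below 0 include differences within 1 SE of 0, whose signs are not taken as directions. Of all 13286 tested genes, 5944 estimates were above 0. Under 11 alternatives that kept all libraries, 33 of 517 gene values changed sign, in 20 genes with differences of at most 0.726 SE. Leaving out RAAS_blocked replicate 6 changed the number of members above 0 from 23 to 13. Over all genes, 0 to 11 passed across the alternatives (2 as reported): 11 with array weights, 0 with 1 FPKM required in all 16 libraries or by the rank test, 3 with no filter and 1 to 6 with 1 library left out. Psma3 had an unadjusted p of 0.0491 after upper-quartile scaling and of 0.0243 after quantile normalization. Leaving out RAAS_blocked replicates 4 and 6 together was chosen after seeing the data.

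Nothing in the labels says that the replicate numbers pair mice. Deviations of same-numbered libraries correlated at -0.28 to 0.43, and 2 of 7 fitted best with their own number. Such values cannot decide whether the libraries were paired, since paired mice can differ in cell content. With the replicate block 0 members had an unadjusted p under 0.05, against 702 of all 13286 genes. In that fit 1 gene of all passed, and the immunoproteasome median was 0.19 and the constitutive median -0.01. For Psmd9 the unadjusted limma p was then 0.0823. Depth, unknown here, limits low genes such as Psma8 and Psmb11.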
